A study of Arabidopsis thaliana with 6 samples.

Results

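The *GH3* genes of *Arabidopsis thaliana* encode acyl acid amido synthetases, enzymes that join plant hormones to amino acids. Several members attach amino acids to the auxin indole-3-acetic acid and so lower the amount of active hormone, and other members act on jasmonate, salicylate-related compounds or the auxin precursor indole-3-butyric acid. Transcripts of the auxin-conjugating members often rise soon after auxin treatment, so that the family acts in a feedback on auxin level. *GH3* genes were of interest here because *tink/ibr5-6* is an allele of *IBR5*, a dual-specificity MAPK phosphatase gene named for its response to indole-3-butyric acid. The arrays compare genotypes without auxin treatment, and the study asked of them whether auxin-responsive genes were altered in this mutant.

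The *GH3* genes described are 10 loci chosen by name, namely *GH3.3*, *GH3.5*, *GH3.9*, *GH3.17*, AT5G13350, AT5G13360, AT5G13370, AT5G13380, AT1G48660 and AT1G48670. Of these, 8 were measured, that is, the platform annotation used here names the gene alone for 1 probe set, out of 13333 genes so named. The other 2, AT5G13360 and AT5G13370, share a probe set with each other and are described only together.

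Inflorescences that carried young buds gave RNA from 3 single plants labelled *tink/ibr5-6* and from 3 wild-type Landsberg *erecta* (L*er*) plants, with 1 Affymetrix ATH1 array for each plant. The mutant came from an EMS screen of *klu-2* plants in the L*er* background and was backcrossed to L*er* to remove *klu-2*, so that both groups share the L*er* background. Only this allele was compared, so that its effect and that of linked EMS changes cannot be told apart. The sources used here describe the buds as young or the flowers as closed and give no closer stage, no age of the plants and no word on whether the genotypes were grown side by side, and the p-values therefore cover only the spread among these 6 plants.

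Values are those of gcrma on a log2 scale, where a difference of 1 is a doubling of signal. Array medians were 6.18 to 6.20, and the lowest value of the table was 2.10. A probe set under a log2 value of 3 was read as at the lowest signal, as 31.5% of the 22746 probe sets tested were on all arrays. Over all probe sets, which are not independent replicates, arrays of 1 genotype had r of 0.996 to 0.998 and arrays of different genotypes r of 0.972 to 0.985. Of the listed flower identity genes only *UFO* and *CLV3*, both of small meristem domains, were measured, and both were at the lowest signal throughout. *A9*, a gene of the tapetum of the anther, was bright, with a log2 value (mean ± SD, n = 3) of 12.90 ± 0.14 in the mutant and 12.55 ± 0.06 in the wild type, and no root marker was measured.

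Of the 8 measured *GH3* genes 2 were lower in *tink/ibr5-6* inflorescences, *GH3.3* and AT5G13350, no *GH3* gene was higher, and the other 6 were not called. A gene was called at an adjusted p under 0.05 (limma, Benjamini-Hochberg over all probe sets) and an absolute log2 fold change above 1, the thresholds of the methods. Thus 25% of these 8 *GH3* genes were called, where 4.25% of all probe sets were called in either direction and 2.71% were called lower. This share was not tested against the background. It leaves out *GH3.1*, *GH3.7* and *GH3.8*, which were measured but at the lowest signal on all arrays. Over all 11 measured *GH3* genes the same 2 were called, a smaller share. The median log2 fold change of the 8 genes was 0.02 and that of all probe sets 0.00. *GH3.3*, *GH3.17* and AT5G13350 are also among the auxin genes that the study listed from these same arrays, and their direction is therefore no independent evidence. Of these, *GH3.17* was not called here. The study also reports Q-PCR for a set of its auxin genes, which was not examined here.

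**Figure D1:**
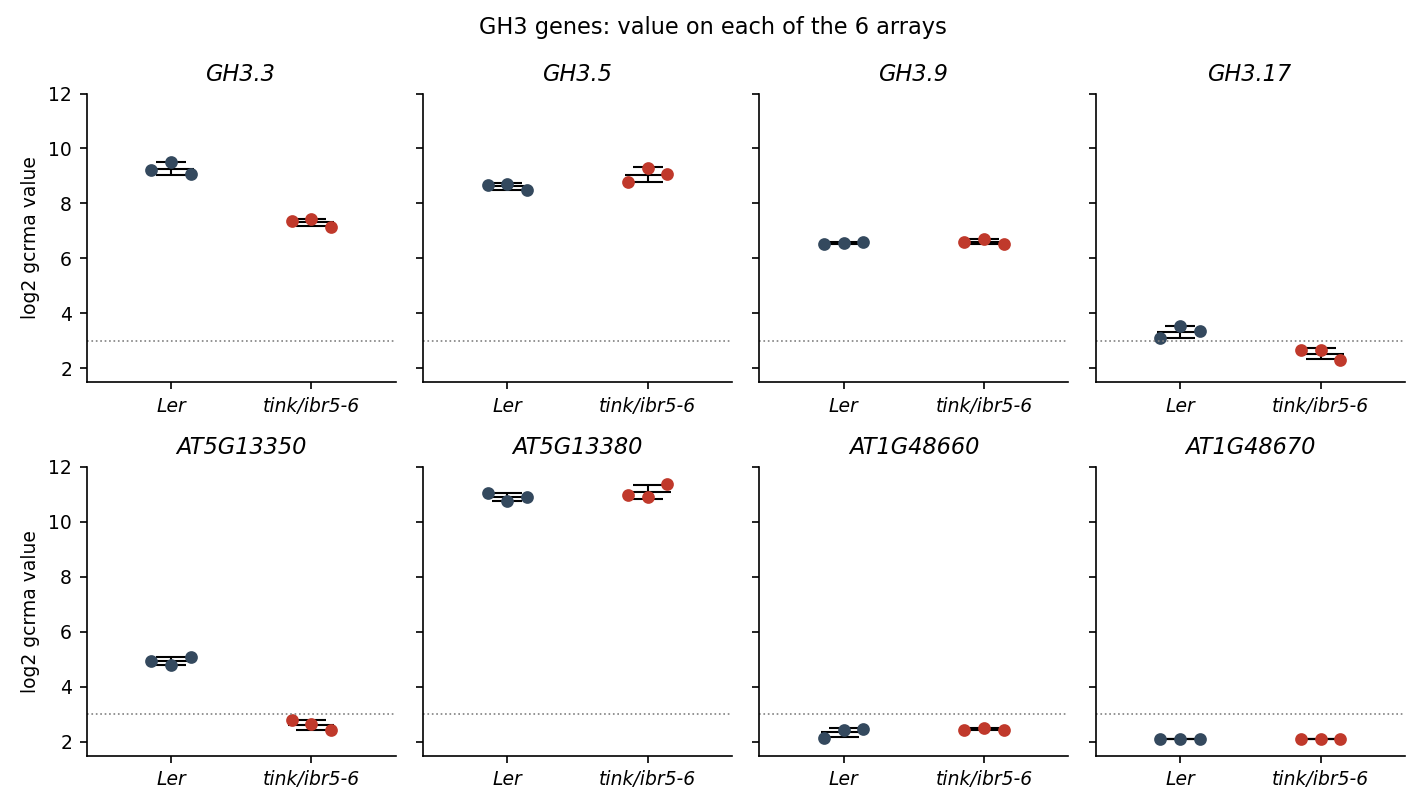
Log2 gcrma value (vertical axis) of the 8 measured *GH3* genes on each array, with points for the 3 L*er* (dark) and 3 *tink/ibr5-6* (red) plants, the mean as a bar and the SD as whiskers; the dotted line marks a log2 value of 3. *GH3.3* and AT5G13350 are lower in all 3 *tink/ibr5-6* plants, while AT1G48660 and AT1G48670 lie under the line throughout.

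*GH3.3*, one of the auxin-conjugating enzymes whose transcript is induced by auxin, was lower in every *tink/ibr5-6* plant. Its log2 values were 7.36, 7.42 and 7.16 in *tink/ibr5-6* and 9.20, 9.52 and 9.08 in L*er*. The plants of the genotypes did not overlap, and the gap between them was larger than the range within either genotype. The log2 fold change was -1.95 (95% interval -2.34 to -1.57, SE 0.15, limma adjusted p = 0.00568), a 3.88-fold lower signal in *tink/ibr5-6*. Among all probe sets, 383 (1.68%) had a log2 fold change as low or lower. *GH3.3* was called in each of the 6 fits that left out 1 array, with log2 fold changes of -2.05 to -1.83.

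*GH3.5*, also known as *WES1*, encodes an enzyme that accepts both auxin and salicylate. It was detected on all arrays, with log2 values of 8.79, 9.30 and 9.06 in *tink/ibr5-6* and 8.68, 8.71 and 8.48 in L*er*. All 3 *tink/ibr5-6* plants lay above the 3 L*er* plants, but replicate 1 of *tink/ibr5-6* only narrowly so. The log2 fold change of 0.43 (95% interval 0.00 to 0.85, SE 0.16, limma adjusted p = 0.167) did not pass, and a doubling lies outside its interval.

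*GH3.3* and *GH3.5* thus had log2 fold changes of opposite sign in the same RNA samples. Within an array, the log2 value of *GH3.3* minus that of *GH3.5* was -1.43, -1.88 and -1.90 in *tink/ibr5-6* and 0.52, 0.81 and 0.60 in L*er*. The levels of different probe sets cannot be set against each other, but the change of this difference between genotypes, -2.38 on the log2 scale, does not depend on a shift of a whole array. The 3 arrays of each genotype did not overlap, which already followed from the values of each gene alone. An exact permutation test (two-sided) gave p = 0.1 for the difference, for *GH3.3* alone and for *GH3.5* alone. This is the smallest p that the test can give for 3 arrays against 3, so that it cannot pass 0.05 here. Of the change, -1.95 came from *GH3.3*, and *GH3.5* was not called, so that the difference is no further evidence of an opposite change.

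*GH3.17*, whose enzyme favours glutamate as the amino acid for auxin, was dim in both genotypes. Its log2 values were 2.65, 2.66 and 2.30 in *tink/ibr5-6* and 3.11, 3.54 and 3.36 in L*er*. The L*er* plants lay just over the level read as the lowest signal and the *tink/ibr5-6* plants under it, without overlap. The signal was at least 1.26-fold lower in *tink/ibr5-6*, counted from the L*er* mean to a log2 value of 3, while a level of 2.5 or 4 gave no bound. The fitted log2 fold change was -0.80 (SE 0.16, limma adjusted p = 0.0425), too small a change for a call. The adjusted p passed 0.05 in none of the 6 fits that left out 1 array, where it was 0.0576 to 0.129.

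*GH3.9*, a family member that in Arabidopsis affects primary root growth, had nearly the same value on every array. Its log2 values were 6.60, 6.69 and 6.53 in *tink/ibr5-6* and 6.54, 6.58 and 6.61 in L*er*, and the genotypes overlapped. The log2 fold change was 0.03 (95% interval -0.10 to 0.17, limma adjusted p = 0.798), the narrowest interval of the 4 *GH3* genes above a log2 value of 3 on all arrays.

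The other members lie next to each other on chromosomes 5 and 1. On chromosome 5 the loci AT5G13350, AT5G13360, AT5G13370 and AT5G13380 follow one another in the RefSeq gene order. AT5G13350, at one end of the run, was lower in *tink/ibr5-6*. It had log2 values of 2.78, 2.64 and 2.43 in *tink/ibr5-6* and 4.95, 4.80 and 5.10 in L*er*. All *tink/ibr5-6* plants were at the lowest signal and all L*er* plants above it. The decrease was at least 3.87-fold, counted from the L*er* mean to a log2 value of 3 (1.93-fold with a level of 4), with a fitted value of -2.33 on the log2 scale (SE 0.13, limma adjusted p = 0.00359). AT5G13350 was called in all 6 fits that left out 1 array, with fitted values of -2.42 to -2.24. It dropped out of the test under a filter that kept mean log2 values of 4 and above.

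AT5G13380, at the other end of the run, was bright in both genotypes. Its log2 values were 10.97, 10.90 and 11.37 in *tink/ibr5-6* and 11.06, 10.75 and 10.91 in L*er*, with overlap. The log2 fold change was 0.17 (95% interval -0.27 to 0.61, SE 0.16, limma adjusted p = 0.596).

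Between these genes lie AT5G13360 and AT5G13370, the latter encoding an enzyme that acts on indole-3-butyric acid. The probe set that can match both had log2 values of 3.42, 3.38 and 3.42 in *tink/ibr5-6* and 3.42, 3.44 and 3.42 in L*er*, which cannot be assigned to either gene. These values lie close to the lowest signal and overlap between genotypes (log2 fold change -0.02, limma adjusted p = 0.484). Beyond the run, AT5G13400 had a log2 fold change of 0.55 (limma adjusted p = 0.0147) and AT5G13410 of -0.08 (limma adjusted p = 0.596), neither of which was called. The 4 other nearest neighbours, *PBS3*, *Rap2.6L*, AT5G13340 and *NEF1*, were not analysed here.

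**Figure D2:**
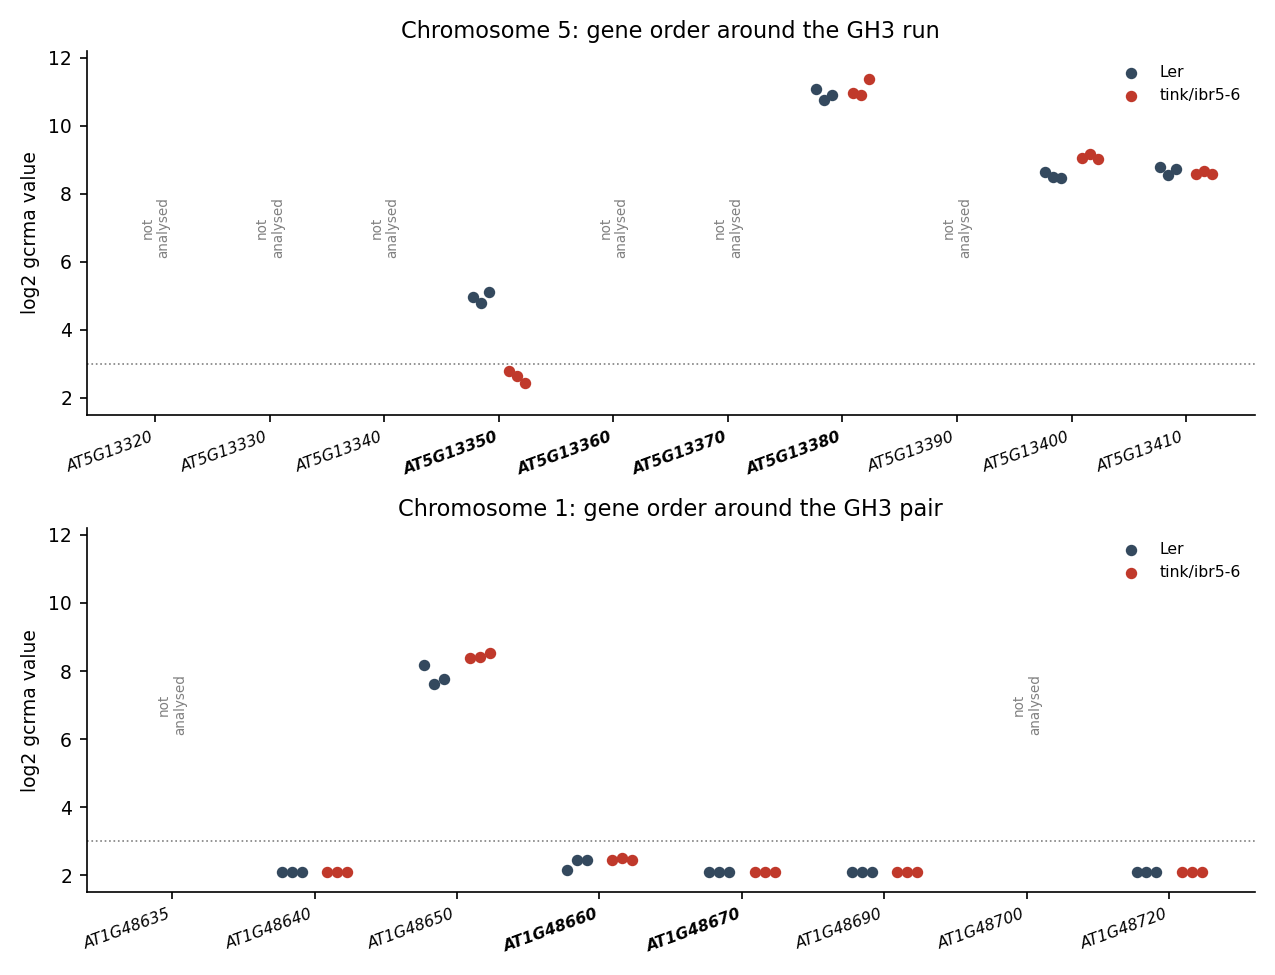
Log2 gcrma value (vertical axis) of the measured genes in RefSeq gene order (horizontal axis, not to scale) around the *GH3* run of chromosome 5 and the *GH3* pair of chromosome 1, with the *GH3* genes in bold and 1 point for each L*er* (dark) or *tink/ibr5-6* (red) plant, and genes with no probe set named for them alone marked as not analysed. On chromosome 5 AT5G13350 is lower in *tink/ibr5-6* and AT5G13380 overlaps between genotypes; on chromosome 1 both *GH3* genes lie under the dotted line at 3.

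On chromosome 1, AT1G48660 and AT1G48670 were at the lowest signal in both genotypes. AT1G48660 had log2 values of 2.45, 2.51 and 2.45 in *tink/ibr5-6* and 2.16, 2.45 and 2.46 in L*er*, and AT1G48670 had 2.10 on all 6 arrays. No difference was detectable at this signal, and no fold is given for them. The neighbour AT1G48650, which is no *GH3* gene, was well above it, with a log2 fold change of 0.59 (limma adjusted p = 0.083). The 3 further *GH3* genes with a probe set of their own, *GH3.1*, *GH3.7* and *GH3.8*, also had 2.10 on all 6 arrays. Of a list of 19 *GH3* genes, 11 were thus measured, of which 5 were under a log2 value of 3 on every array. *JAR1*, the jasmonate-conjugating member, *PBS3*, a member that acts in salicylate synthesis, and *GH3.2*, *GH3.4*, *GH3.6* and *GH3.10* were not analysed here.

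In 4 of the 8 measured members the plants of the genotypes did not overlap, *GH3.3*, *GH3.17* and AT5G13350 being lower and *GH3.5* higher in *tink/ibr5-6*. This is 50% of them, where 35.7% of all probe sets did not overlap. At an adjusted p under 0.05 without a limit on the fold change 3 of the 8 passed, 37.5%, against 16.3% of all probe sets. Both shares leave out *GH3.1*, *GH3.7* and *GH3.8*, which had 2.10 on all 6 arrays. With them the counts were 4 of 11 and 3 of 11, and 4 of 11 is near the share of all probe sets without overlap. The SD within a genotype was 0.04 to 0.26 on the log2 scale among the 4 members above a log2 value of 3 on all arrays.

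**Figure D3:**
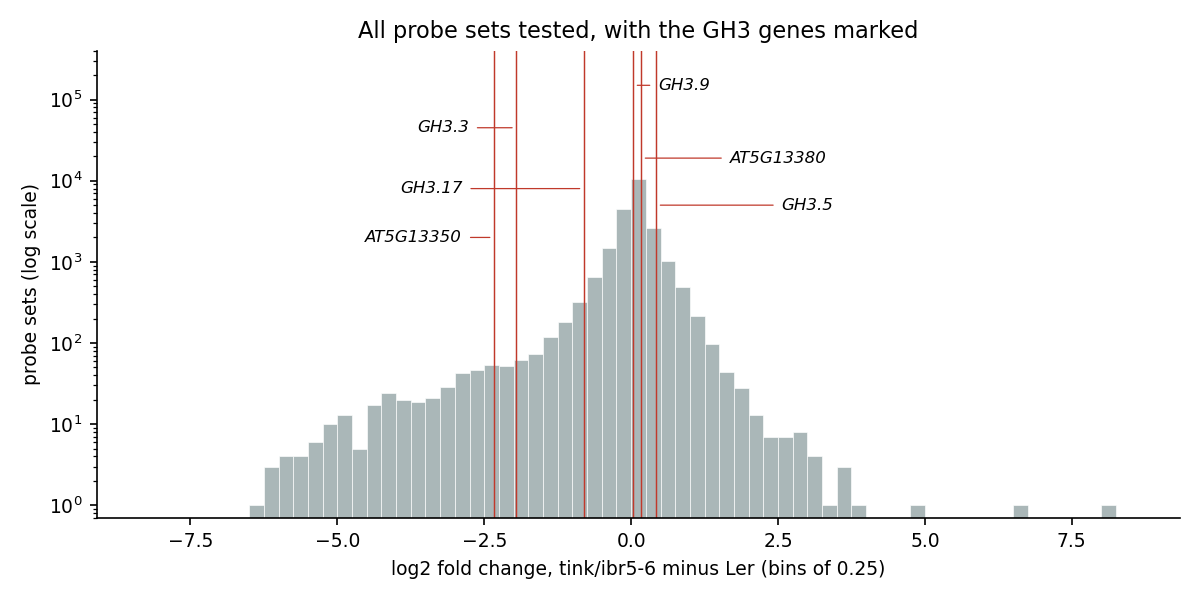
Number of probe sets (vertical axis, log scale) by log2 fold change of *tink/ibr5-6* minus L*er* (horizontal axis, bins of 0.25) for the 22746 probe sets tested, with red lines at the measured *GH3* genes other than AT1G48660 and AT1G48670, which had the lowest signal on all arrays. *GH3.3* at -1.95 and AT5G13350 at -2.33 lie in the lower tail, and the lines of *GH3.17*, *GH3.9*, AT5G13380 and *GH3.5* lie between -0.80 and 0.43; the values of AT5G13350 and *GH3.17* rest on *tink/ibr5-6* arrays at the lowest signal.

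Of 13 pollen genes listed as markers, 8 were measured and 5 of these were called lower in the same *tink/ibr5-6* samples, where 2.71% of all probe sets were called lower. The median of the 8 fitted log2 fold changes was -3.07 (0.00 over all probe sets). *ANX1*, *TUA1* and *HTR10* were not called but had fitted log2 fold changes of -1.45, -0.54 and -2.95 (limma adjusted p of 0.105, 0.255 and 0.0622). In limma, 5 of the 8 had an adjusted p under 0.05, where 16.3% of all probe sets did. The summed linear signal of the 8 was 249.8 to 368.2 in *tink/ibr5-6* and 1765 to 2416 in L*er*. *PLIM2A*, an actin-bundling protein gene of pollen, had log2 values of 3.75, 2.23 and 2.33 in *tink/ibr5-6*, of which 2 were at the lowest signal, and of 7.63, 8.94 and 7.98 in L*er* (limma adjusted p = 0.0115). *ANX1*, a receptor-like kinase gene of the pollen tube, was at the lowest signal on all *tink/ibr5-6* arrays and on 1 of the L*er* arrays. Of 17 tapetum genes 3 were measured, of which limma called none (1 at an adjusted p under 0.05). *AMS*, which encodes a bHLH regulator of tapetum development, was above its L*er* values on all *tink/ibr5-6* arrays, with a log2 fold change of 0.89 (95% interval 0.50 to 1.28, limma adjusted p = 0.0253), under the limit of the fold change for a call. *A9* had 0.35 (limma adjusted p = 0.0597) and *EXL5*, which encodes an extracellular lipase, had -0.34 (limma adjusted p = 0.234). The 3 genes had a summed linear signal of 10166 to 11192 in *tink/ibr5-6* and 9118 to 10276 in L*er*. The part of these differences in pollen and tapetum transcripts in the decrease of *GH3.3* or AT5G13350 was not tested, and in bulk inflorescences fewer cells that express a gene cannot be told apart from less of its RNA per cell.

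The genes whose values followed those of *GH3.3* most closely over the 6 arrays were AT1G67870, AT2G13350 and AT2G26490, each with a Pearson r of 0.998, among 7654 genes whose log2 values averaged 4 or more. All 3 were called lower, with log2 fold changes of -1.34, -4.08 and -4.33 (limma adjusted p of 0.00649, 0.00501 and 0.00457). Choice by likeness to *GH3.3* on the same arrays fixed this direction, so that these calls are no further evidence. AT2G26490 was at the lowest signal in all *tink/ibr5-6* plants and at least 11.2-fold lower. These arrays fall into the groups of the genotypes, which sets most of such a correlation: 428 of the genes had an r over 0.95.

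Few genes of other steps of auxin metabolism and response were measured. The 120 genes in 8 lists cover auxin synthesis, conjugate hydrolysis, other inactivation, indole-3-butyric acid conversion, auxin perception, *Aux/IAA* repressors, jasmonate and salicylate. Of these genes 16 were measured, of which limma called none. As 4.25% of all probe sets were called, 0 of 16 is near the background and no result about these steps. Of the 16, 9 were under a log2 value of 3 on all arrays, where no difference was detectable. No gene of conjugate hydrolysis, indole-3-butyric acid conversion, auxin perception or jasmonate was measured.

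Auxin synthesis had 4 measured genes of 21, with a median log2 fold change of 0.36. *YUC2*, *YUC4* and *YUC6*, flavin monooxygenase genes of auxin synthesis, had log2 fold changes of 0.35 (95% interval -0.17 to 0.88), 0.75 (-0.25 to 1.75) and 0.37 (-0.14 to 0.88), and *YUC11* was at the lowest signal. All 3 values were above 0, but each interval includes 0 (limma adjusted p of 0.334, 0.281 and 0.289). *YUC4* was close to the lowest signal in L*er*, with log2 values of 3.02, 2.83 and 3.07. Other ways to inactivate auxin had 4 measured genes of 7. *DAO1*, which encodes an oxidase of indole-3-acetic acid, had a log2 fold change of -0.08 (95% interval -0.48 to 0.32) and *UGT74D1*, a glucosyltransferase gene, one of -0.34 (-1.15 to 0.47), while *DAO2* and *UGT84B1* were at the lowest signal.

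Of 29 *Aux/IAA* genes, which encode repressors of the auxin response, 7 were measured and 6 of these were at the lowest signal, *IAA30* among them. The seventh, *IAA18*, had a log2 value (mean ± SD, n = 3) of 6.94 ± 0.07 in the mutant and 7.03 ± 0.19 in the wild type, which differ by -0.09 (95% interval -0.38 to 0.20, limma adjusted p = 0.699). *UGT74F1*, a salicylate glucosyltransferase gene and the 1 measured gene of 10 for salicylate, had a log2 fold change of 0.09 (95% interval -0.58 to 0.75). A change of the size of *GH3.3* lies outside the intervals of *DAO1*, *UGT74D1*, *YUC2*, *YUC6*, *IAA18* and *UGT74F1*. For *YUC4* a decrease of that size could not have been seen, as its L*er* mean of 2.97 was close to the lowest value of the table, 2.10.

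**Figure D4:**
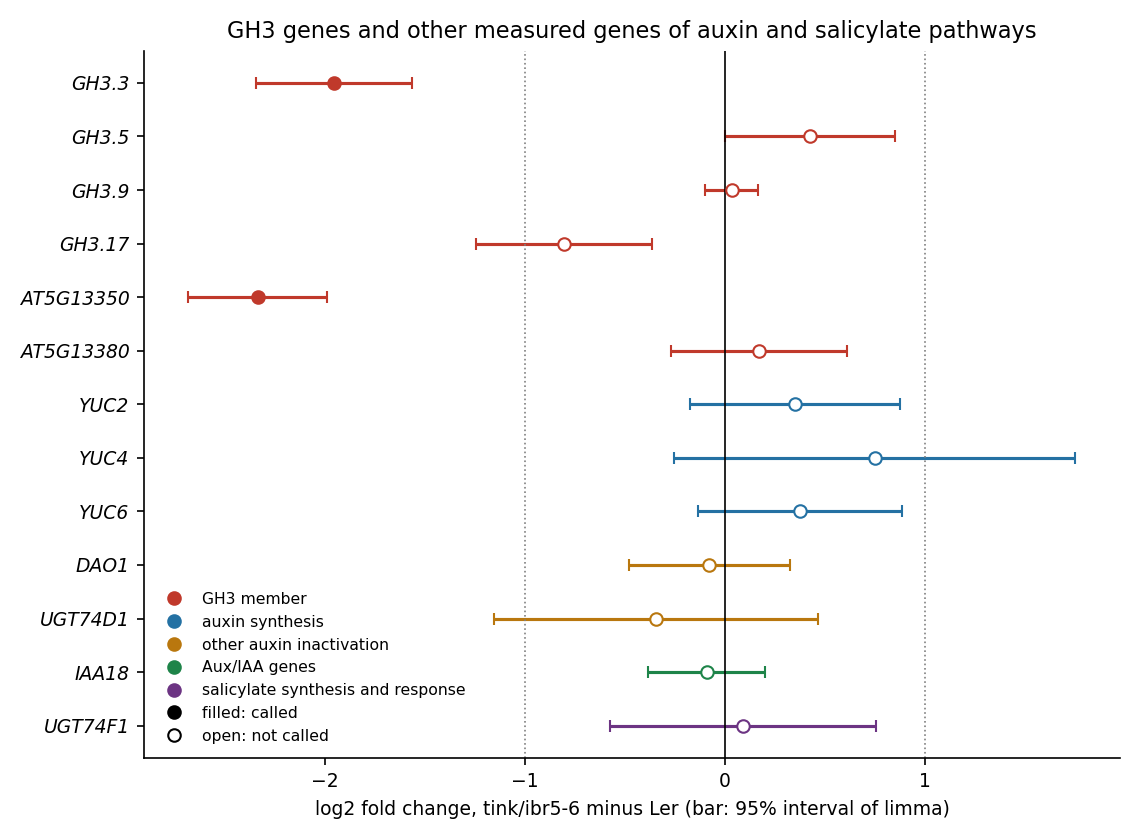
Log2 fold change of *tink/ibr5-6* minus L*er* (horizontal axis, points) with the 95% interval of limma (bars) for the 6 *GH3* genes and the 7 pathway genes not at the lowest signal on all arrays, coloured by list, with filled points for called genes and dotted lines at -1 and 1. Only *GH3.3* and AT5G13350 are filled. The fitted values of AT5G13350 and *GH3.17* rest on *tink/ibr5-6* arrays under a log2 value of 3, and that of *YUC4* on L*er* arrays close to 3.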

How the data were processed

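RNA of 3 *tink/ibr5-6* and 3 L*er* inflorescence samples was hybridised to Affymetrix ATH1 arrays. Normalization was done by the authors with gcrma, in a version not given in the sources used here, and the deposited table holds log2 values. Of 22810 probe sets, 64 controls were left out. By the platform annotation, 13513 of the remaining 22746 stand for 1 gene and 503 for several, while 8730 are not in it. No *GH3* gene had more than 1 probe set of its own. The test was that of limma 3.58.1 (lmFit, then eBayes, with a prior of 0.401 degrees of freedom) in R 4.3.3, with adjustment by Benjamini-Hochberg over all 22746 probe sets. The number of arrays limits the precision. Where each array of the dimmer genotype was under a log2 value of 3, the fold is given as a lower bound from that level. The fit was tested on simulated data. The members, the lists, the level of 3 and the rule for named genes (all members, called genes of each list or otherwise up to 3 with the highest mean, and the 3 genes most like *GH3.3*) were chosen with earlier results of these data known, and genes neighbouring the members were chosen for naming with their values in view. Alternatives were other scalings, filters, priors, thresholds and weights for arrays, a block for replicate numbers, another level and leaving out each array. Python 3.11.15, pandas 2.3.3 and matplotlib 3.10.9 were used for the rest.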

Additional observations from a re-analysis of the deposited data

How the results depend on the processing

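*GH3.3* kept its direction and its call in all 13 alternatives (log2 fold change -2.05 to -1.83, adjusted p of 0.000107 to 0.0398 from limma), and *GH3.5* stayed above 0 and uncalled in all 13 (0.30 to 0.56, adjusted p of 0.0418 to 0.362). The count of 2 called *GH3* genes was 2 to 2 when 1 array was left out. It was 1 of 4 tested when probe sets averaging under 4, or under 6, were dropped, AT5G13350 among them. The samples share only a replicate number: none of the 3 same-numbered pairs correlated over 0.1 in their deviations, and 1 of the 6 arrays correlated best with its own number. With the replicate block, 1 *GH3* gene and 133 of all probe sets were called, and AT5G13350 had an adjusted p of 0.0593. The count of 966 called probe sets was 632 with those averaging under 6 dropped, 366 at an adjusted p under 0.01, 3697 without a limit on the fold change, and 518 to 746 when 1 array was left out (518 without *tink/ibr5-6* replicate 2). *GH3.9* had -0.0086 to 0.0744 when 1 array was left out, the negative value without *tink/ibr5-6* replicate 2, and was never called. The bound of AT5G13350 was 1.93-fold with a level of 4 in place of 3, and with a level of 2.5 no bound applied. For *GH3.17* no bound applied at either of these levels. The pathway genes had 0 calls in all 16 alternatives. Genes at the lowest signal had no measurable difference on these arrays.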
